A study of Mus musculus with 8 samples.

Results

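The genes described here encode the machinery that takes new secretory and membrane proteins into the endoplasmic reticulum (ER), packs them for export to the Golgi and brings escaped ER residents back. The set was listed by function as 44 genes of the translocon, the COPII coat and the COPI coat with their cargo receptors. Of these, 41 had at least 1 probe set annotated to a single symbol, out of 17097 genes measured. Sec61g, Sec11a and Copb1 had none and are not analysed here. Where a gene had several probe sets, the one with the highest average across the 8 arrays stood for it.

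The old group held dermal fibroblasts of 4 mice aged 18 months, and the young group those of 4 mice aged 2 months. The series' design text states that 1 old and 1 young mouse were taken on each collection day, but the labels do not say which animals shared a day. Each animal had its own Affymetrix perfect-match array, with no treatment and no engineered allele named, and neither strain nor sex is given in the sources used here. In both groups the cells came from collagenase-digested skin without its subdermis and were sorted as CD45-, CD117-, CD24-, CD31- and EpCam- cells carrying Pdgfra and CD34. Values are log2 levels after RMA, so a difference of 1 is a doubling, and the levels of different genes cannot be set against each other because their probes differ.

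Secretory proteins are guided to the ER by the signal recognition particle and its receptor, pass through the Sec61 channel and lose their signal peptide to signal peptidase. COPII coats, started by the GTPase Sar1, bud vesicles from ER exit sites, and cargo receptors such as Lman1 and the Tmed proteins load them. COPI coats carry material back from the Golgi, among it KDEL receptors holding ER chaperones that had left. Dermal fibroblasts send large amounts of procollagen along this route, and procollagen export depends on COPII components.

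Most of the machinery was lower in old fibroblasts. Of the 41 measured genes, 24 fell, 1 rose and 16 did not pass, by limma at a Benjamini-Hochberg adjusted p of 0.05, the adjustment taking in all 17097 genes. These calls made up 58.5% and 2.44% of the 41 genes, against 7.66% lower and 9.87% higher among all genes. The median log2 difference, old minus young, was -0.28 over the 41 genes and 0.01 over all genes. Differences ran between -1.15 and 0.33, so most changes were smaller than 1.5-fold. All old values lay below all young values for 23 genes, against 9.66% of all genes, and above them for 3, against 11.7%. In sorted cells measured in bulk, fewer cells of a kind and less RNA per cell cannot be told apart.

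**Figure D1:**
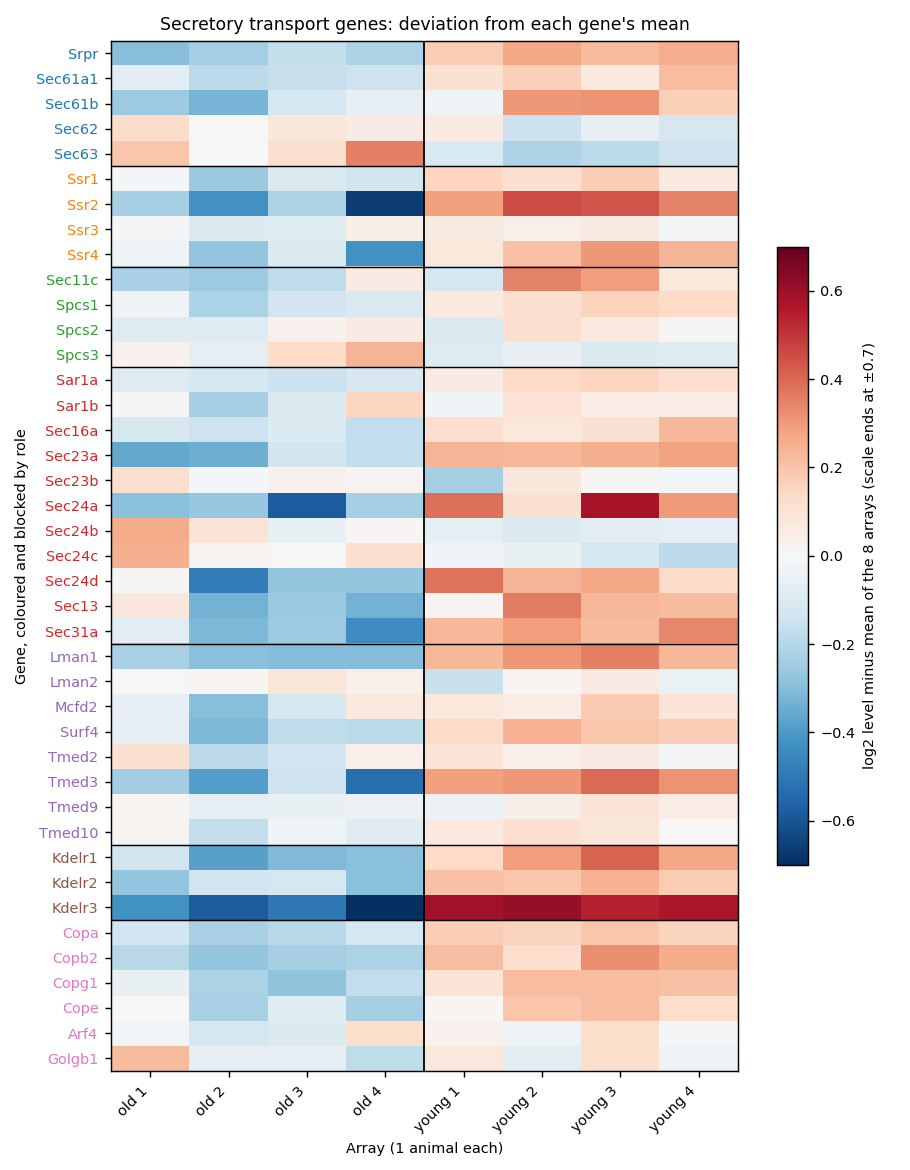
Log2 level of each of the 41 measured genes (rows, blocked and coloured by role) in each of 8 arrays (columns, old left and young right), as deviation from the gene's own mean over the arrays. Blue prevails in the 4 old columns and red in the 4 young ones, while 7 genes, Sec63 and Sec24c among them, run the other way.

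Averaged over the 41 genes, the deviation from each gene's mean was -0.06, -0.21, -0.14 and -0.14 in old animals 1 to 4, against 0.09, 0.15, 0.18 and 0.12 in young animals 1 to 4. The groups were apart, with old animal 1 nearest to the young arrays. An index of non-specific hybridization, the mean of 8 control probe sets with 18 or more G or C bases, was 5.53, 5.82, 6.18 and 5.78 in old animals and 6.62, 6.34, 6.42 and 6.36 in young animals. The index differed by -0.61 (exact permutation p = 0.0286, the smallest that 4 against 4 arrays allow, 2-sided), and its groups did not overlap either. With this index as a covariate, 3 of the 41 genes were called lower and 0 higher by limma. Over all genes 0.579% were then called lower and 0.398% higher. At an unadjusted p under 0.05 the 41 genes held 21 lower and 0 higher, a threshold not counted over all genes in this fit. The sign stayed negative for all 24 genes called lower, and the median over the 41 genes was -0.34. Sizes moved in both directions, with Sec13 at -0.75 (adjusted p = 0.0924) and Kdelr2 at -0.27 (adjusted p = 0.369). The part of the background in the differences was not tested beyond this fit.

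The sort gate was checked by its own genes. Cd34 averaged 11.68 ± 0.10 in old and 11.73 ± 0.07 in young arrays and Pdgfra 8.52 ± 0.13 and 8.36 ± 0.16 (SD, n = 4 each). Among genes of excluded cells, Ptprc (3.88 in old, 3.71 in young) and Kit (3.72 and 3.63) lay near the lowest values of the table, Epcam read 4.59 and 4.25, Pecam1 5.44 and 5.07, and Cd24a 6.60 and 7.27. Keratinocyte genes outside the gate lay well above the array medians (5.19 to 5.34) at both ages. Krt5 averaged 10.76 in old and 9.72 in young arrays, Krt10 9.86 and 9.42, Krt1 8.04 and 6.68, and Trp63, lower in old, 7.2 and 7.6. Of 54 measured markers of fibroblasts and other cells, 7 rose (13%, against 9.87% of all genes) and 5 fell (9.26%, against 7.66%), shares near those of all genes. Among the brightest of each list, Krt5 differed by 1.04, Fabp4 by 3.02, Csf1r by -1.92 and Mitf by 0.31, all called, whereas Dcn (-0.09), Kdr (0.14), Acta2 (0.72) and Cma1 (0.04) were not. The other called markers, named after their values were seen, went in both directions. Lyz2 of the leukocyte list differed by 1.08, Tek of the endothelial list by 1.73, Krt14 by 1.65 and Trp63 by -0.41 in the keratinocyte list, and Mlana of the pigment cell list by -0.57. In the fibroblast list Col3a1 (-0.28) and Twist2 (-0.33) fell and Prrx1 (0.32) rose. Of its 9 genes 7 differed below 0, against 8166 of all 17097. All old values lay below all young values for 4 (44.4%, against 9.66% of all genes), and above them for 1. These 4 were Col3a1, Twist2, Col1a1 (-0.19) and Lum (-0.16), of which Col1a1 and Lum were not called. The mean deviation of 9 keratinocyte markers ran between -0.19 and 0.93 in old and between -0.70 and 0.40 in young arrays. For 9 fibroblast markers it ran between -0.12 and -0.01 in old and between 0.02 and 0.16 in young arrays, without overlap. For 3 adipocyte markers it ran between 0.23 and 0.77 in old and between -0.94 and 0.01 in young arrays, also without overlap. In the other marker lists the ages overlapped. The part of the mix of cells in the transport genes was not tested. Whole arrays correlated between 0.992 and 0.997 within an age and between 0.983 and 0.990 across ages.

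Because many of these genes moved together, their promoters were searched for letters bound by stress-responsive factors. RefSeq windows of 300 bases (GRCm38.p6, 250 before to 50 after the start) were found for 36 of the 44 genes. The core TGACGTGG, a sequence read in mammals by Xbp1, Atf6 and the Creb3 family of ER-anchored factors, was sought on both strands. It stood in the windows of 5 of 36 genes (13.9%), against 0.714% of 27025 genes with a window and 0.97% of those on the array. Of the genes that fell, 4 of 20 with a window held it (20.0%), against 0 of 12 that did not pass. Copb1, the fifth holder, was not measured. These counts are a description of the windows, and binding was not measured. The 4 windows are shown with the core in capitals, on the strand of the gene (positions -120 to 30 from the start), because they belong to genes that fell.
Kdelr3: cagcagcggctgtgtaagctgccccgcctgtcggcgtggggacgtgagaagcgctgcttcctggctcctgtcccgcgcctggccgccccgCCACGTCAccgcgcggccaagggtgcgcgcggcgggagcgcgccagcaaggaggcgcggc
Sec24d: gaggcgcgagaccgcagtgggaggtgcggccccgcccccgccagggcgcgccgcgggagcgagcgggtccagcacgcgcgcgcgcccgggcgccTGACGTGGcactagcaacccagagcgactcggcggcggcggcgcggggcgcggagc
Sec23a: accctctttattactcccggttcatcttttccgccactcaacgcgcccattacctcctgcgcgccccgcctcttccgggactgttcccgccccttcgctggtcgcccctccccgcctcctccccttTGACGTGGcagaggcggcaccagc
Copb2: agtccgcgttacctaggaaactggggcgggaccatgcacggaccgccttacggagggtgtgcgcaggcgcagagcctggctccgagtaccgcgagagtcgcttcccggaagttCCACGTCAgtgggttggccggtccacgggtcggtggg

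The windows lie at chr15:79516288-79516437 (plus strand) for Kdelr3, chr3:123267376-123267525 (plus) for Sec24d, chr12:59011988-59012137 (minus) for Sec23a and chr9:98563611-98563760 (plus) for Copb2. The core starts 30 bases before the annotated start in Kdelr3 and 26 before it in Sec24d. It begins 7 bases before the start in Copb2 and 7 bases into the transcript in Sec23a. In Kdelr3 and Copb2 the core reads on the opposite strand, as CCACGTCA. Sec23a has been described as a target of the factor Creb3l2 in mouse cartilage cells.

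Other motifs were sought in the same way on both strands. The ER stress element was found for 0 of 36 genes and 0.137% of all genes, its second form for 0 of 36 and 0.0444%, and the composite TGATGCAAT for 0 of 36 and 0.222%. The cyclic AMP element TGACGTCA stood in the window of Cope alone (1 of 36, against 2.03% of all genes). CCAAT was found for 13 of 36 (36.1%, against 41.1%). CCACG, which is part of the TGACGTGG core read backwards, was found for 26 of 36 (72.2%, against 35.5% of all genes and 45.7% of those on the array). Within the set the CCACG share was 14 of 20 among genes that fell and 9 of 12 among those that did not pass, and CCAAT stood in 3 of 20 and 8 of 12. Absence of a match says only that these letters are not in the window.

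Among genes of ER entry, the signal recognition particle receptor and the channel itself fell while the accessory subunit Sec63 rose. Srpr, the receptor's alpha subunit, read 9.72, 9.78, 9.85 and 9.80 in old animals, against 10.19, 10.29, 10.24 and 10.27 in young animals. Its groups were far apart, with a log2 difference of -0.46 ± 0.06 (SE, adjusted p = 6.2e-04, limma). Sec61a1, the pore-forming subunit of the channel, read 11.19, 11.08, 11.10 and 11.12 in old animals and 11.37, 11.43, 11.33 and 11.48 in young animals. That difference, -0.28 ± 0.06 (SE, adjusted p = 0.0105), was called in each of the 4 probe sets of the gene, which ran between -0.27 and -0.43. Sec61b, the small beta subunit, read 10.73, 10.66, 10.86 and 10.93 in old animals and 10.96, 11.29, 11.30 and 11.15 in young animals (-0.38 ± 0.09, SE, adjusted p = 0.0197). The gap between its groups was narrow, old animal 4 lying just under young animal 1, and the call was lost without old animal 2 (adjusted p = 0.0559), young animal 2 (0.0573) or young animal 3 (0.0592).

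Sec62 and Sec63 form the part of the translocon that helps proteins enter after their synthesis and hands them to the chaperone BiP. Sec63 read 9.98, 9.79, 9.90 and 10.14 in old animals, against 9.68, 9.57, 9.60 and 9.64 in young animals. It was the 1 gene of the set that rose (0.33 ± 0.08, SE, adjusted p = 0.0175), with no overlap of the groups. The call was lost without young animal 2 (adjusted p = 0.0503) and with the mean over its probe sets (0.13, adjusted p = 0.31). Its other 3 probe sets differed by 0.24, 0.00 and -0.06, none of them called. Sec62 differed by 0.14 (adjusted p = 0.204) with overlapping groups on its brightest probe set, which may also bind related transcripts. Dimmer sets, at mean levels of 6.41 and 5.25, fell by 0.35 and 0.41 on the log2 scale (adjusted p = 0.0236 and 0.0325 by limma over all 45141 probe sets). The probe sets of Sec62 thus differ in direction. Binding of related transcripts is also possible for the probe sets used for Ssr4, Sec16a and Surf4, called lower, and for Tmed9, not called.

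The translocon-associated protein complex, which sits beside the channel and assists certain signal sequences, fell in 3 of its 4 subunits. Ssr2, its beta subunit, read 9.95, 9.76, 9.96 and 9.52 in old animals, against 10.47, 10.64, 10.62 and 10.53 in young animals. At -0.77 ± 0.10 (SE, 1.7-fold, adjusted p = 7.8e-04) this was the second largest difference of the set. Ssr4, the delta subunit, read 10.39, 10.14, 10.31 and 9.99 in old animals and 10.49, 10.62, 10.72 and 10.65 in young animals (-0.41 ± 0.09, SE, adjusted p = 0.014). Old animal 4 was the lowest for both genes. Ssr4 was not called with the mean over its probe sets (-0.19, adjusted p = 0.112), of which the 2 dimmer ones differed by -0.08 and -0.09. Ssr1, the alpha subunit, fell by 0.25 on the log2 scale (adjusted p = 0.0291), a call that was lost without any of 6 arrays (old 2, 3 and 4, young 1, 2 and 3; adjusted p up to 0.0803) and on the most variable probe set (-0.29, adjusted p = 0.0805). Ssr3, the gamma subunit, differed by -0.07 (adjusted p = 0.468) and its groups overlapped at a level near 12, high in the array's range.

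In signal peptidase, which cuts the signal peptide from proteins in the channel, 1 of 4 measured subunits fell. Spcs1, an accessory subunit, read 11.24, 11.04, 11.13 and 11.16 in old animals, against 11.33, 11.38, 11.42 and 11.40 in young animals (-0.24 ± 0.06, SE, adjusted p = 0.0247). The groups were close but apart, and the call was lost without any of 5 arrays (old 2 and 3, young 2, 3 and 4; adjusted p up to 0.0699), with a replicate block (0.0587) and with the mean over its probe sets (-0.15, adjusted p = 0.0908). A second probe set, at a mean level of 9.21, was called lower by limma over all probe sets (-0.29, adjusted p = 0.0173). The remaining one, dim at 4.10, differed by 0.09 and was not called. The other measured subunits had overlapping groups. Spcs2 differed by -0.05 (adjusted p = 0.714) and Spcs3 by 0.17 (0.164). The catalytic subunit Sec11c differed by -0.30 (adjusted p = 0.0974), within a 95% interval of -0.55 to -0.05, and was called without young animal 1 (-0.39, adjusted p = 0.03), with repeated quantile normalization (-0.35, 0.0407) and with array weights (-0.34, 0.0322).

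**Figure D2:**
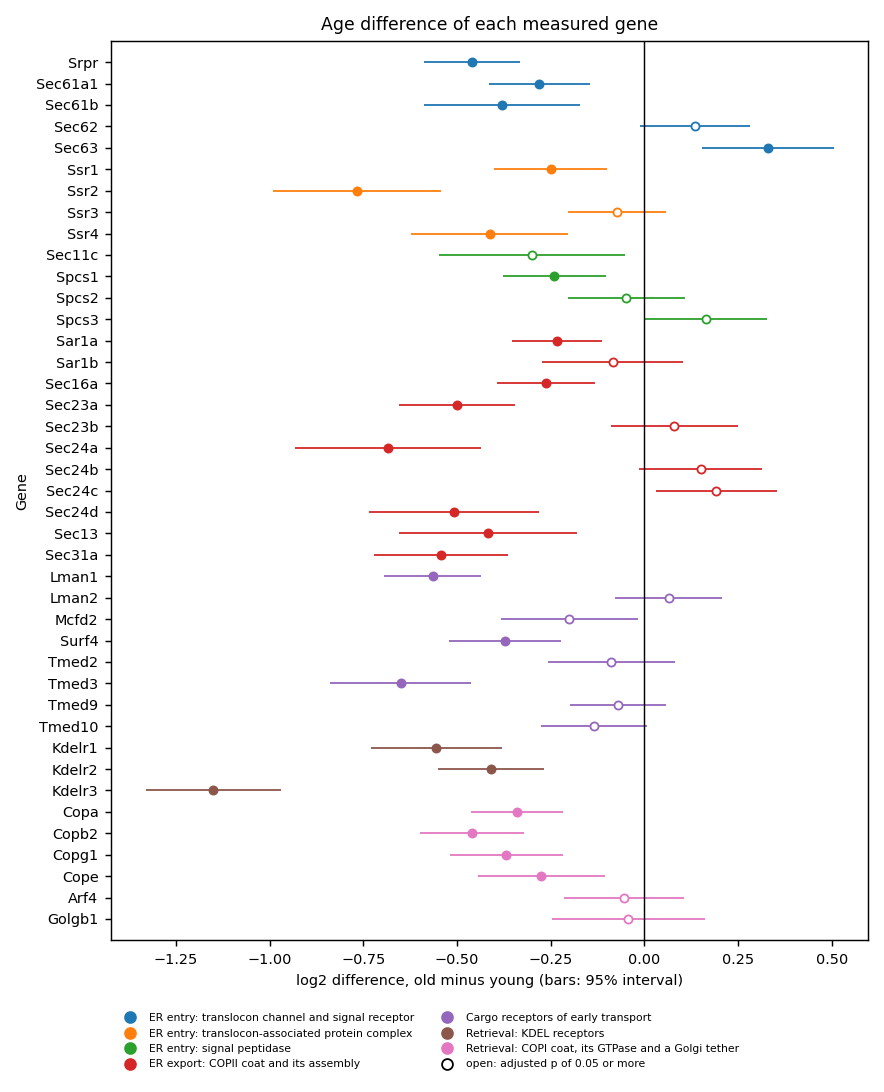
Log2 difference, old minus young, of each of the 41 measured genes with its 95% interval from the limma fit, ordered and coloured by role. Filled points passed an adjusted p of 0.05, 24 of them left of 0 and Sec63 alone right of it, with Kdelr3 (-1.15) and Ssr2 (-0.77) farthest to the left.

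In the COPII coat and its assembly factors, 7 of 11 genes fell and 4 did not pass. Sec31a, of the outer coat, read 9.75, 9.51, 9.57 and 9.39 in old animals, against 10.06, 10.12, 10.05 and 10.16 in young animals. Its difference was -0.54 ± 0.08 (SE, adjusted p = 0.00153), the groups being well apart. Sec13, the partner of Sec31a in the outer coat and also part of the nuclear pore, read 10.22, 9.81, 9.88 and 9.81 in old animals and 10.16, 10.50, 10.37 and 10.36 in young animals. It fell by 0.42 (adjusted p = 0.0237) although old animal 1 lay above young animal 1, and it was the 1 called gene whose groups overlapped. The call of Sec13 was lost without any of 6 arrays (old 2, 3 and 4, young 2, 3 and 4; adjusted p up to 0.0667). Sec16a, the scaffold of ER exit sites, read 9.30, 9.27, 9.32 and 9.24 in old animals and 9.53, 9.49, 9.52 and 9.64 in young animals (-0.26 ± 0.06, SE, adjusted p = 0.0126), and its second probe set gave -0.27.

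The inner coat showed unequal changes among paralogues. Sec23a, whose loss in zebrafish and in people disturbs the skeleton, read 9.43, 9.45, 9.66 and 9.62 in old animals, against 10.03, 10.02, 10.04 and 10.07 in young animals. It fell by 0.50 on the log2 scale (1.41-fold, adjusted p = 0.00103), with young animals almost identical. Sec23b, its close relative, read 8.83, 8.70, 8.74 and 8.73 in old animals and 8.48, 8.79, 8.72 and 8.69 in young animals, which overlap (0.08, 95% interval -0.09 to 0.25, adjusted p = 0.542). The log2 ratio of Sec23a to Sec23b was 0.79 ± 0.15 in old and 1.37 ± 0.14 in young arrays (SD, n = 4 each), a difference of -0.58 (exact permutation p = 0.0286, adjusted p = 0.0449 over 11 pairs of relatives). With the background index as a covariate, Sec23a differed by -0.34 (adjusted p = 0.277) and Sec23b by -0.09 (0.889) by limma. The ratios themselves were not run with that covariate.

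Sec24 proteins choose the cargo that COPII vesicles take up. Sec24a read 7.41, 7.44, 7.12 and 7.47 in old animals, against 8.09, 7.81, 8.28 and 8.00 in young animals (-0.69 ± 0.11, SE, 1.61-fold, adjusted p = 0.00252). Sec24d, tied to bone and cartilage disorders in people and in zebrafish, read 10.19, 9.70, 9.91 and 9.91 in old animals and 10.56, 10.42, 10.45 and 10.31 in young animals (-0.51 ± 0.10, SE, adjusted p = 0.0076). Neither gene had overlapping groups, and the second probe set of Sec24a fell by 0.94 on the log2 scale. Sec24b differed by 0.15 (adjusted p = 0.205) and Sec24c by 0.19 (0.103), and all their old values lay above all their young values. For Sec24b the groups almost touched, the lowest old value being 8.74 and the highest young value 8.73. On its second probe set they overlapped (7.30 to 7.64 in old and 7.06 to 7.43 in young arrays). With the background index as a covariate, Sec24b differed by -0.06 (adjusted p = 0.924) and Sec24c by 0.04 (0.955) by limma. Sec24a then differed by -0.86 (0.119) and Sec24d by -0.62 (0.223). Within arrays, Sec24a lost ground against Sec24b (log2 ratio difference -0.84) and Sec24c (-0.88), and Sec24b (0.66) and Sec24c (0.70) gained against Sec24d. Each had an exact permutation p of 0.0286, the smallest that 4 against 4 arrays allow, and an adjusted p of 0.0449. These ratios share genes and are not independent tests. Sec24a against Sec24d (-0.18, exact p = 0.343) and Sec24b against Sec24c (-0.04, exact p = 0.514) did not pass. By sequence, Sec24a is closest to Sec24b, and Sec24c to Sec24d, so each of these sequence pairs held 1 gene that fell and 1 that did not pass.

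**Figure D3:**
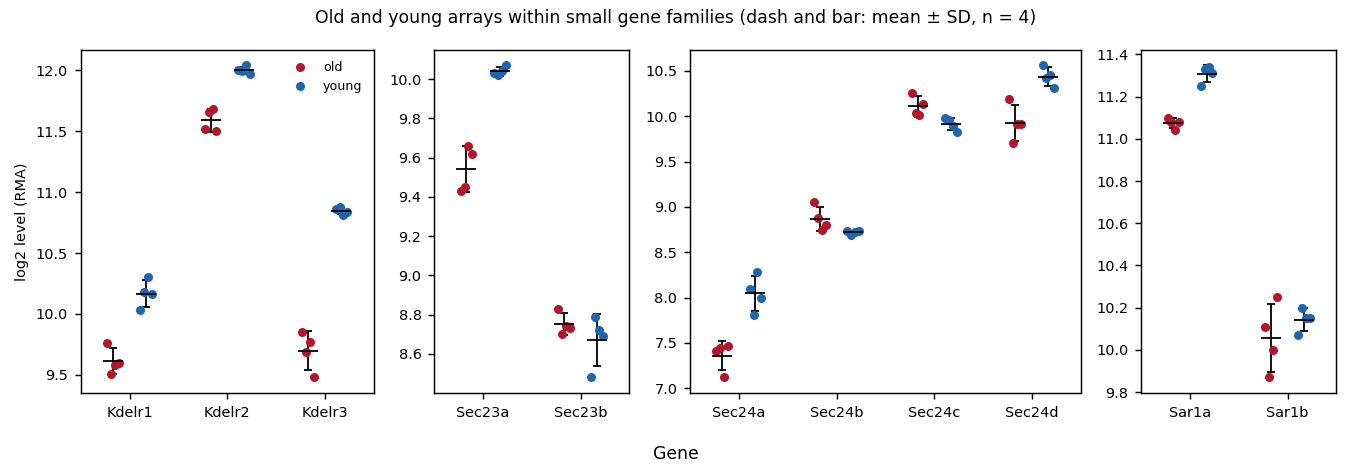
Log2 level (RMA) of KDEL receptor, Sec23, Sec24 and Sar1 genes in 4 old (red, left of each pair) and 4 young (blue, right) arrays, with mean and SD. All KDEL receptors, Sec23a, Sec24a, Sec24d and Sar1a lie lower in old with no overlap, while Sec23b overlaps and Sec24b and Sec24c lie slightly higher in old.

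Sar1 GTPases start coat assembly. Sar1a read 11.10, 11.08, 11.04 and 11.08 in old animals, against 11.25, 11.33, 11.34 and 11.31 in young animals (-0.23 ± 0.05, SE, adjusted p = 0.0155). The groups were tight and apart, a second probe set gave -0.47, and the replicate block left the call just outside the threshold (adjusted p = 0.0518). Sar1b, whose loss in people blocks chylomicron export, differed by -0.09 (adjusted p = 0.557) with overlapping groups, and the ratio of Sar1a to Sar1b did not pass (-0.15, exact permutation p = 0.143).

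Of 8 cargo receptors, 3 fell and 5 did not pass. Lman1, the lectin that carries clotting factors and other glycoproteins out of the ER, read 11.01, 10.94, 10.93 and 10.93 in old animals, against 11.47, 11.54, 11.59 and 11.47 in young animals. Its difference was -0.57 ± 0.06 (SE, 1.48-fold, adjusted p = 2.1e-04), among the tightest of the set, and 4 of its 5 probe sets were called, at -0.56 to -0.68. With the background index as a covariate it was still called (-0.64, adjusted p = 0.0438). Mcfd2, the partner of Lman1 in clotting factor transport, read 9.92, 9.68, 9.86 and 10.05 in old animals and 10.05, 10.03, 10.16 and 10.07 in young animals, which overlap (-0.20, adjusted p = 0.13). Mcfd2 was called with repeated quantile normalization (-0.24, adjusted p = 0.0415) and with array weights (-0.25, 0.0383).

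Tmed3, of the p24 family of vesicle membrane proteins, read 10.89, 10.75, 10.99 and 10.61 in old animals, against 11.42, 11.44, 11.53 and 11.45 in young animals (-0.65 ± 0.08, SE, 1.57-fold, adjusted p = 7.6e-04). The other p24 proteins of the set did not pass on their brightest probe sets. These were Tmed2 (-0.09, adjusted p = 0.499), Tmed9 (-0.07, 0.469) and Tmed10 (-0.14, 0.185), all at levels above 11. Of the p24 proteins among the related genes, Tmed5 rose (0.38, adjusted p = 0.022) and Tmed7 did not pass (-0.02, adjusted p = 0.882). On other probe sets of the same genes, Tmed2 fell by 0.45 and by 0.35 on the log2 scale in 2 of 7, Tmed9 by 0.33 in 1 of 2 and Tmed10 by 0.25 in 1 of 4. The Tmed2 probe set that fell by 0.45 and the Tmed10 probe set may also bind related transcripts. Surf4, a receptor for soluble cargo, read 11.14, 10.89, 11.03 and 11.02 in old animals and 11.34, 11.45, 11.40 and 11.38 in young animals (-0.37 ± 0.07, SE, adjusted p = 0.00438), and its second probe set gave -0.30. Lman2, a lectin related to Lman1, differed by 0.07 (adjusted p = 0.557) and its groups overlapped.

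All KDEL receptors fell. These receptors bind chaperones by their KDEL-type tail in the Golgi and return them to the ER. Kdelr3 read 9.85, 9.69, 9.77 and 9.48 in old animals, against 10.86, 10.88, 10.81 and 10.84 in young animals. The difference of -1.15 ± 0.08 (SE, 2.22-fold, adjusted p = 2.6e-05) was the largest of the 41 genes, and its young values were nearly identical. It was called under each alternative run, including the background index as a covariate (-1.17, adjusted p = 0.0185). Kdelr1 read 9.76, 9.51, 9.58 and 9.60 in old animals and 10.03, 10.18, 10.30 and 10.16 in young animals (-0.56 ± 0.08, SE, adjusted p = 0.00119). Kdelr2 read 11.52, 11.66, 11.68 and 11.50 in old animals and 12.00, 11.99, 12.04 and 11.97 in young animals (-0.41 ± 0.06, SE, adjusted p = 0.00197). Neither overlapped between the ages, and on a dimmer probe set Kdelr2 fell by 0.92 on the log2 scale.

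Kdelr3 fell more than its relatives. The log2 ratio of Kdelr3 to Kdelr1 was 0.09 ± 0.14 in old and 0.68 ± 0.13 in young arrays (SD, n = 4 each), a difference of -0.60. Against Kdelr2 the difference was -0.74, and both ratios had an exact permutation p of 0.0286 and an adjusted p of 0.0449. The second of these was smaller on the most variable probe set (-0.24) and with the mean over probe sets (-0.49). Kdelr2 against Kdelr1 did not pass (0.15, exact p = 0.229), and turned to -0.36 on the most variable probe set.

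The COPI coat, which forms vesicles that return KDEL receptors and other proteins to the ER, fell in each of the 4 subunits of the set that were measured. The coat subunits listed among the related genes fell too by limma, Arcn1 (delta) by 0.33 on the log2 scale (adjusted p = 0.00476), Copz1 (zeta) by 0.40 (0.00316), the gamma relative Copg2 by 0.53 (0.00995) and Copz2 by 0.74 (8.1e-05). Copg2 was dim, at 5.47 in old and 6.0 in young arrays, where the background index averaged 5.83 and 6.43. The part of background in its difference was not tested. Copa, the alpha subunit, read 11.22, 11.13, 11.16 and 11.23 in old animals, against 11.53, 11.51, 11.55 and 11.51 in young animals (-0.34 ± 0.06, SE, adjusted p = 0.00244). Copb2, the beta-prime subunit, read 9.62, 9.54, 9.58 and 9.59 in old animals and 10.03, 9.93, 10.14 and 10.07 in young animals (-0.46 ± 0.06, SE, adjusted p = 9.7e-04). Copg1, the gamma subunit, read 10.30, 10.13, 10.07 and 10.18 in old animals and 10.45, 10.57, 10.57 and 10.56 in young animals (-0.37 ± 0.07, SE, adjusted p = 0.00487). None of the 3 overlapped, and a second probe set was called lower for each (-0.76 for Copa, -0.46 for Copb2 and -0.50 for Copg1). Copg1 was the third gene still called with the background index as a covariate (-0.59, adjusted p = 0.0473).

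Cope, the epsilon subunit, read 10.45, 10.23, 10.37 and 10.22 in old animals and 10.47, 10.65, 10.67 and 10.58 in young animals. Old animal 1 lay only just below young animal 1, and the call (-0.28 ± 0.08, SE, adjusted p = 0.0321) was lost without any of 6 arrays (old 2, 3 and 4, young 2, 3 and 4; adjusted p up to 0.0904), with the replicate block (0.059) and after median centring (0.0514). Arf4, a GTPase that helps recruit the coat, differed by -0.06 (adjusted p = 0.672) and the Golgi tether giantin, Golgb1, by -0.04 (adjusted p = 0.809), both with overlapping groups.

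**Figure D4:**
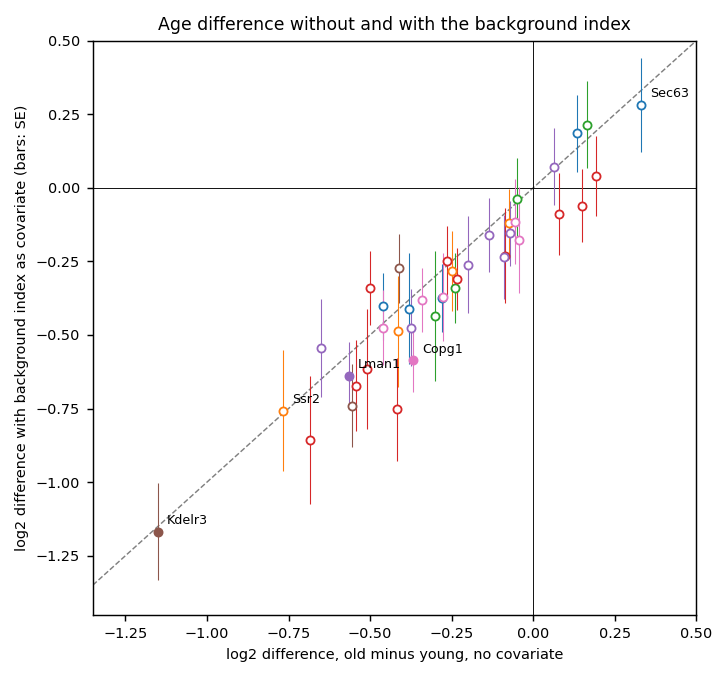
Log2 difference, old minus young, of the 41 measured genes without (x axis) and with (y axis, SE bars) the background index as a covariate, coloured by role as in the plot of age differences. Filled points, Kdelr3, Lman1 and Copg1, passed an adjusted p of 0.05 with the covariate, and most open points stay below 0 with wide bars.

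Every probe set of the table was also fitted on its own, a setting chosen after seeing the data. Of the 89 probe sets of the 41 genes, 47 were called lower, 1 higher and 41 did not pass, against 5.48% lower and 7.6% higher over all 45141 probe sets. No gene had probe sets called in both directions. For 32 genes every probe set had a difference below 0, a share not counted over all genes. Of the 41 genes 27 had more than 1 probe set. On the probe set that stood for each gene, 34 of the 41 differed below 0, against 8166 of all 17097 genes.

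The rest of the early secretory pathway was followed through 107 further genes listed by function, of which 97 were measured. Of these, 38 fell, 7 rose and 52 did not pass, with a median log2 difference of -0.17. The share that fell was 39.2%, against 7.66% of all genes, and the share that rose 7.22%, against 9.87%. Lower calls were 10 of 19 among other COPI, ARF and retrieval genes, 10 of 22 among other ER export genes, 5 of 12 among oligosaccharyltransferase subunits, 9 of 25 among tethers, Rabs and SNAREs, and 4 of 19 among other ER entry genes. With the background index as a covariate, 2 of the 97 were called lower and 0 higher by limma, against 0.579% and 0.398% of all genes. At an unadjusted p under 0.05 the counts were 37 and 2, a threshold not counted over all genes in this fit.

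**Figure D5:**
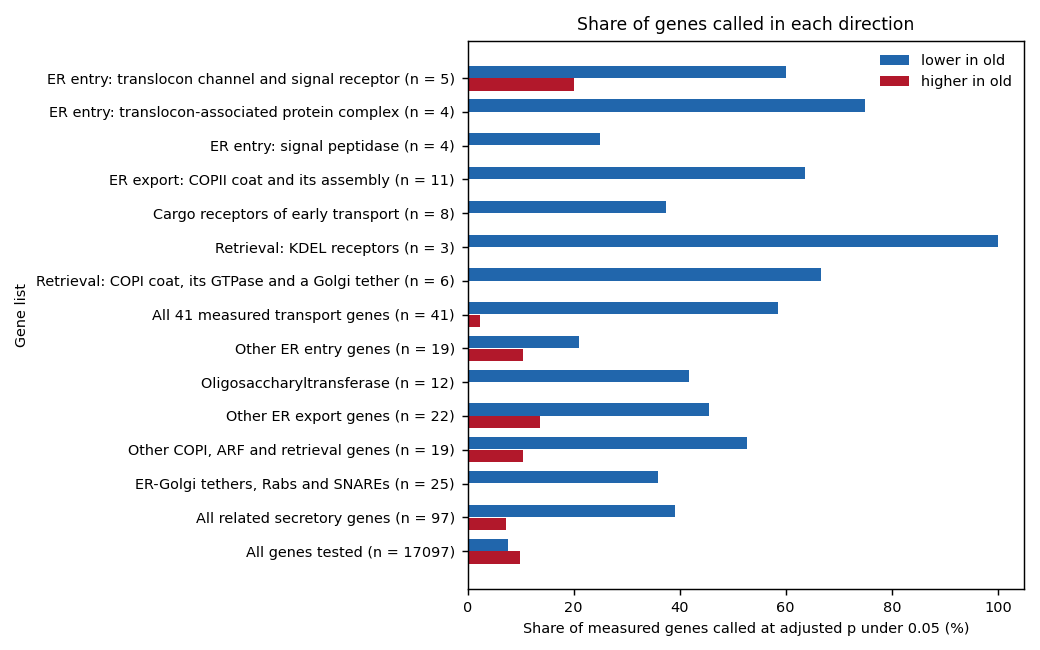
Share of measured genes (x axis, percent) called lower (blue) or higher (red) in old fibroblasts, for the roles within the 41 transport genes, for lists of related secretory genes and for all genes tested. The share lower was 58.5% of the transport genes and 39.2% of the related genes, against 7.66% of all genes.

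Among the related genes, the 10 lower calls of smallest p were led by Sec22b, a SNARE of transport between ER and Golgi. It read 10.23, 10.30, 10.28 and 10.17 in old animals, against 10.91, 10.93, 10.99 and 10.90 in young animals (-0.69, adjusted p = 7.4e-05). Copz2, a zeta subunit of COPI, fell by 0.74 on the log2 scale (adjusted p = 8.1e-05), and with Sec22b it was still called with the background index as a covariate (adjusted p = 0.0432 and 0.0452). Ostc, of the oligosaccharyltransferase that adds sugar chains to entering proteins, fell by 0.96. Sec16b (-0.76), a relative of Sec16a, Tfg (-0.56), an organiser of ER exit sites, and Sec23ip (-0.55), a partner of Sec23, belong to ER export. The tethers Uso1 (-0.56) and Golga2 (-0.50), the ARF exchange factor Gbf1 (-0.55) and the Golgi SNARE Stx5a (-0.60) complete the group. None of the 10 overlapped between the ages, which their choice by smallest p makes likely beforehand. Of all 97 measured related genes, 44 (45.4%) had all old values below all young values, against 9.66% of all genes.

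The 7 related genes that rose were Bcap29 (0.83), an ER membrane protein, Emc1 (0.50), of the complex that inserts membrane proteins, and Klhl12 (0.46), an adaptor of a ubiquitin ligase that acts on Sec31. The others were Tmed5 (0.38), the Sec61a1 relative Sec61a2 (0.33), the retrograde SNARE Use1 (0.32) and Arf3 (0.29). Calls were lost for Tmed5 without young animal 1 or 2 (adjusted p up to 0.0535), for Arf3 without any of 6 arrays (old 1, 3 and 4, young 2, 3 and 4; up to 0.0919) and for Sec61a2 without any of 6 (old 2, 3 and 4, young 1, 3 and 4; up to 0.1). They were also lost with the mean over probe sets for Tmed5 (0.14, adjusted p = 0.286) and Arf3 (0.13, 0.146), with median centring for Arf3 (0.0556), with repeated quantile normalization for Arf3 (0.0527) and Sec61a2 (0.0521), and on the most variable probe set for Sec61a2 (0.0783). The TGACGTGG core stood in the windows of 4 of 33 related genes that fell (12.1%) and 1 of 46 that did not pass (2.17%).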

How the data were processed

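Per the submitters' processing notes, the authors worked with RMA and affy (no version stated), and the deposited table holds log2 levels of 45141 probe sets in 8 arrays, rounded to 2 decimals. RMA corrects background, quantile-normalizes arrays and summarises probes, so a change common to most transcripts is removed and differences near both ends of the range are compressed. No build is given in the sources used here. Gene symbols came from the platform annotation (28898 probe sets with 1 symbol, 551 with several, 15692 with none), and 28689 matched a RefSeq gene ID.

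The age comparison was a linear model per gene (limma 3.58.1, R 4.3.3, 2-sided moderated tests) over 17097 genes. Ratios of relatives had an exact permutation test over 70 splits of the arrays, adjusted over 11 pairs. The fit was tested on simulated data. Figures used matplotlib 3.10.9 in Python 3.11.15. The number of arrays limits precision. Promoter windows are RefSeq's.

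The genes, lists, motifs and tests were chosen with earlier results of these data known. All 41 measured genes are named. Of the related genes, up to 10 called in each direction by smallest p are named. Arcn1, Copz1, Copg2 and Tmed7 are named beyond that rule, as relatives of genes in the set. They were not followed singly through the alternatives. Alternatives covered a replicate block, 2 scalings, a dim-gene limit of 5, other probe set rules, trend and robust settings, array weights, a background covariate and each array left out. Specimen numbers were not taken as pairs, since the labels do not tie them to the collection days that the ages shared, and the permutation tests take no account of those days.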

Additional observations from a re-analysis of the deposited data

Results flagged for a closer look

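In 116 groups of 4 arrays (the 41 genes and the 17 related genes named by smallest p, each age apart), 6 held 1 array farther from the others than the 95% limit of Dixon's test, and chance gives about 1 in 20. Old animal 1 was apart for Sec13 (10.22, others 9.81 to 9.88), Lman1 (11.01, others 10.93 to 10.94) and Bcap29 (6.96, others all at 7.05). Old animal 2 was apart for Uso1 (9.07, others 9.22 to 9.25). Young animal 1 was apart for Copg1 (10.45, others 10.56 to 10.57), and young animal 3 for Klhl12 (7.03, others 6.97 to 6.98). In each case but Uso1 the lone array lay toward the other age. The gaps of Lman1, Bcap29 and Klhl12 were under 0.1 on the log2 scale.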

How the results depend on the processing

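The count of 24 transport genes lower in old stayed between 21 and 27 under the alternatives of scaling, probe set choice, variance model, array weights, dim-gene limit and replicate block, and between 19 and 24 with 1 array left out. It was 3 with the background index as a covariate, and the cause was not tested beyond that fit, in which the index itself separates the ages. Of the 24, 19 kept their call without any 1 array. The count higher was 0 with the covariate and with the mean over probe sets by limma. At an unadjusted p under 0.05 it was 0 and 3, a threshold not counted over all genes in these fits. With 1 array left out the count called higher was 0 to 1, 0 being without young replicate 2. Of the related genes, 2 were lower and 0 higher with the covariate, and with 1 array left out 30 to 41 were lower and 5 to 6 higher. The replicate block gave 21 transport and 35 related genes lower. Same-numbered arrays correlated at 0.29, 0.05, -0.04 and 0.22 in their deviations from the group means, and not every array correlated best with its own number. Of the 11 ratios of relatives 7 passed, 7 to 8 with 1 array left out, and 0 with pairing by replicate block, where 4 pairs allow no p under 0.125. The 7 all had the smallest permutation p that 4 against 4 arrays allow, and ratios that share a gene are not independent. The ratios were not run with the background index as a covariate. Sec62 turned to -0.41 on its most variable probe set. How signal over background limited the calls was not tested.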
